A study of Caenorhabditis elegans with 40 samples.

Results

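Small heat shock proteins are 10 genes in the deposited tables, picked by symbol: hsp-16.1, hsp-16.2, hsp-16.41, hsp-16.48, hsp-12.3, hsp-12.6, hsp-17, hsp-25, hsp-43 and sip-1, out of 42048 features. The study sequenced polyadenylated RNA of whole Caenorhabditis elegans, fed the OP50 strain of E. coli, in 40 libraries that form 8 groups of 5. Each of 2 genotypes, wild-type N2 and octr-1(ok371), a mutant of a neuronal octopamine receptor, was sampled young at 20 °C and old at 3 temperatures: 15 °C on day 24, 20 °C on day 14 and 25 °C on day 9 of adulthood. Thus temperature and chronological day cannot be told apart among old animals. Age was compared at 20 °C. The labels do not say that the replicates were separate cultures, and the p-values therefore measure the spread among these libraries alone, part or all of which may be technical.

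Small heat shock proteins share an alpha-crystallin domain and hold unfolding proteins without using ATP, keeping them soluble until ATP-driven chaperones refold them. In C. elegans the hsp-16 genes are the classical heat-inducible set, transcribed through the heat shock factor HSF-1, and a reporter of hsp-16.2 is widely used as a marker of stress and of expected lifespan. The short Hsp12 proteins, of which hsp-12.6 is a target of the insulin-pathway factor DAF-16, lack long tails, whereas hsp-25 and hsp-43 are larger proteins found in muscle and other structural tissues, and sip-1 acts in oocytes and embryos.

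Of the 10 genes, 8 had reads in every library. The remaining pair, hsp-16.1 and hsp-16.48, was listed at 0 in all 40 libraries, as were hsp-16.11 and hsp-16.49. These 4 lie next to each other on chromosome V in the WBcel235 annotation, where the symbols hsp-16.1 and hsp-16.48 each stand on 2 gene records of nearly identical copies. Reads that match more than 1 copy may go uncounted, and how such reads were treated is not given in the sources used here. A value of 0 for these genes is therefore no measure of their RNA. No fold is given for them below.

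Levels are given as CPM, counts per M reads of a library, scaled over all 40 libraries with TMM, a factor that centres most genes between libraries (mean ± SD, n = 5 in every group). Genotype comparisons and those of 15 °C with another temperature were tested with limma on the log2(value + 1) scale, which understates changes of low genes. Comparisons of age, of 25 with 20 °C and of 1 genotype effect with another were tested with edgeR on the recovered reads. Calls required an adjusted p below 0.05 (Benjamini-Hochberg, over all genes). In whole animals, fewer cells of a type and less RNA per cell cannot be told apart. The deposited table of old mutants at 25 against 20 °C has its group names exchanged: all 10 of its columns hold the reads that the other tables give to the same replicate number of the other group. The comparison below therefore uses the reads of the other tables, and every direction in it turns over if that table's names are taken as given. Depth was 27.9 to 40.998 M reads per library, and octr-1, the mutated gene, was lower in every mutant group without overlap (limma log2 fold change -1.77 in young animals and -2.09 to -2.73 in old ones).

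**Figure D1:**
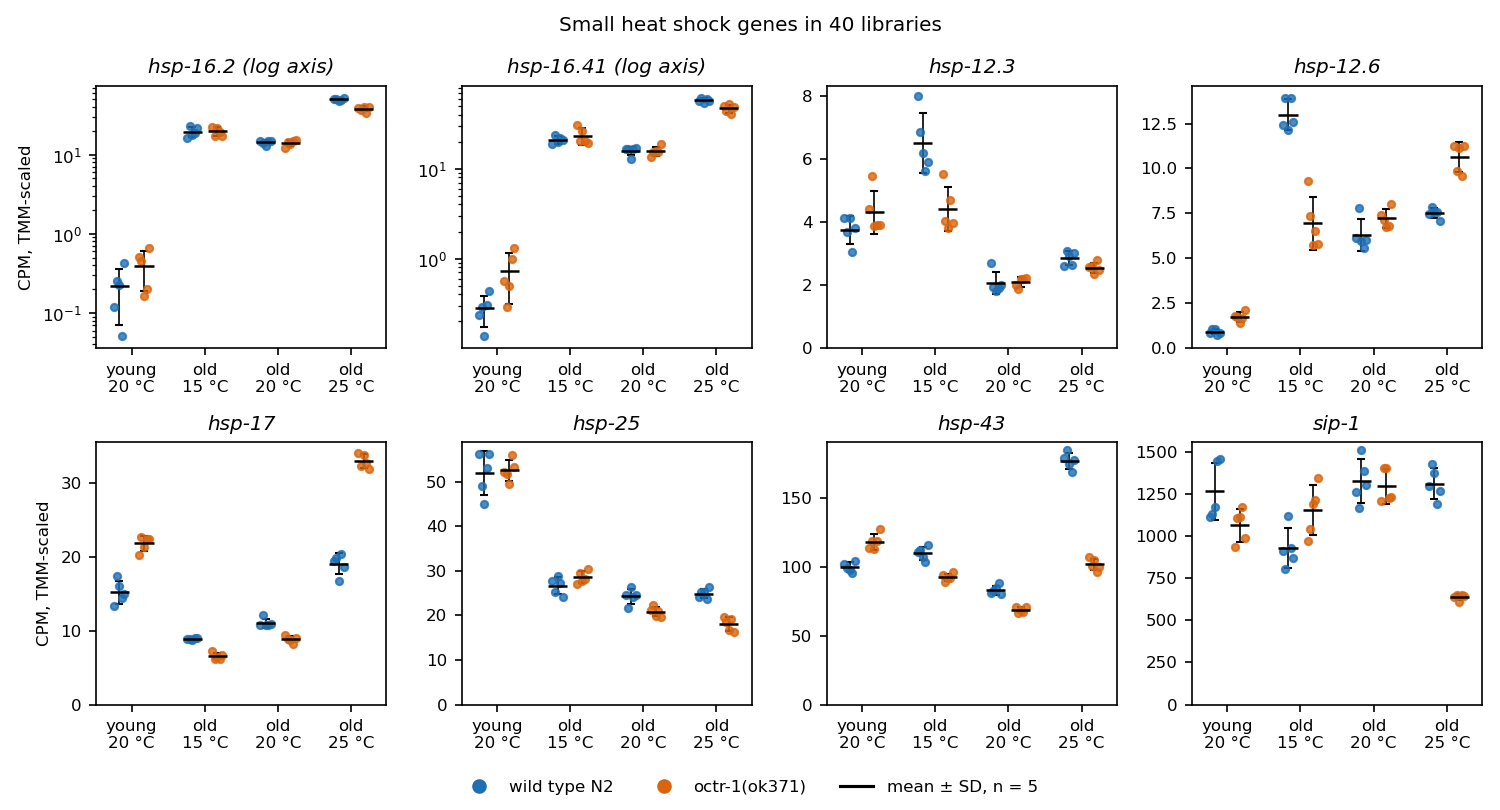
Each panel plots 1 gene in 40 libraries as TMM-scaled CPM (vertical axis, logarithmic for hsp-16.2 and hsp-16.41, linear from 0 for the others) against age and temperature; points are libraries, black bars the mean ± SD of 5. hsp-16.2 and hsp-16.41 stood at no more than 1.311 CPM in every young library and at 12.27 CPM or more in every old one, while sip-1 was lowest in old mutants at 25 °C.

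Per kilobase of exon, sip-1 was the most abundant of the 8 measured genes in all 8 groups and hsp-43 the next. sip-1 held between 76.6% (old mutants at 25 °C) and 93.3% (old mutants at 20 °C) of the level summed over the 8 genes. In young wild-type animals sip-1 stood at 1976 CPM per kb, hsp-43 at 72.1 and hsp-25 at 45.8. The lowest were hsp-16.41 at 0.438 and hsp-16.2 at 0.375. In every old group the hsp-16 pair held ranks 3 and 4, with levels of 24.7 and 24.8 CPM per kb in the wild type at 20 °C and of 86.4 and 90.4 at 25 °C.

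The heat-inducible pair showed the widest range of the family. In young wild-type animals hsp-16.2 measured 0.119, 0.256, 0.227, 0.0507 and 0.432 CPM, from 1 to 10 reads each. Old wild-type animals at 20 °C measured 14.7, 14.1, 12.8, 14.9 and 14.9 CPM, with 420 to 530 reads each. The groups lay far apart, a 63.6-fold rise with age (edgeR log2 fold change 5.99 ± 0.21 SE, adjusted p = 1.5e-27), with the precision of the fold set by the few reads in young animals. hsp-16.41 measured 0.238, 0.292, 0.136, 0.304 and 0.432 CPM in the same young libraries and 16.6, 16.503, 12.9, 16.54 and 16.8 CPM in the old ones, a rise of 55.8-fold (5.80 ± 0.25, adjusted p = 2.02e-21). The mutants rose 35.4-fold for hsp-16.2 (edgeR log2 5.15 ± 0.18) and 20.7-fold for hsp-16.41 (4.37 ± 0.20). Per kilobase of exon both genes passed from ranks 7 and 8 of the 8 genes to ranks 3 and 4 in either genotype.

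Among old animals the pair was highest at 25 °C. Wild-type hsp-16.2 measured 50.4, 50.5, 48.0, 48.8 and 51.9 CPM at 25 °C and 15.97, 23.1, 17.5, 18.8 and 21.7 CPM at 15 °C. Wild-type hsp-16.41 measured 57.4, 61.4, 53.7, 60.4 and 56.5 CPM at 25 °C and 18.95, 23.7, 19.6, 21.9 and 20.7 CPM at 15 °C. Neither gene overlapped between any pair of the 3 temperatures. Against 20 °C, the rise at 25 °C was 3.49-fold for hsp-16.2 and 3.64-fold for hsp-16.41 (edgeR adjusted p = 2.27e-21 and 1.07e-16). The lowest level was at the middle temperature, since 15 °C was also above 20 °C, by 1.35-fold and 1.32-fold (limma adjusted p = 0.000331 and 0.00022). Mutants had the same order of temperatures, with 2.69-fold and 2.99-fold at 25 °C and 1.37-fold and 1.45-fold at 15 °C, all called.

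Among old animals the pair passed the genotype test at 25 °C and not at 20 or 15 °C. Mutant hsp-16.2 at 25 °C measured 38.8, 36.9, 40.1, 33.6 and 39.6 CPM, below every wild-type library. It was 1.32-fold lower (limma log2 -0.40 ± 0.04, adjusted p = 1.27e-08), and hsp-16.41 was 1.24-fold lower (-0.31 ± 0.06, adjusted p = 7.06e-05) at 46.9 ± 4.90 against 57.9 ± 3.10 CPM. With library size as the only scaling the hsp-16.41 difference was -0.09 and not called (edgeR adjusted p = 0.154). At 20 °C the genotypes differed by -0.01 ± 0.07 for hsp-16.2 and -0.00 ± 0.08 for hsp-16.41, and at 15 °C by 0.01 ± 0.11 and 0.12 ± 0.12. The genotype effect at 25 °C differed from that at 20 °C for hsp-16.2 (edgeR -0.38 ± 0.12, adjusted p = 0.00786), a call lost with library size as the only scaling (-0.21, adjusted p = 0.173). For hsp-16.41 that test was not passed (-0.29 ± 0.15, adjusted p = 0.122), but it was in edgeR on the compared groups only (-0.28, adjusted p = 0.0387).

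In young animals hsp-16.41 was the higher in mutants, at 0.558, 0.287, 0.495, 0.997 and 1.311 CPM, but its 2 groups overlapped. It was 2.19-fold higher on the log2(value + 1) scale (limma 1.13 ± 0.37, adjusted p = 0.0181), from 7 to 36 reads per mutant library and 3 to 10 per wild-type library. It passed the filter on low values with 4 mutant libraries and 1 wild-type library, mainly through the group where it was high. hsp-16.2 did not pass that filter and was not tested there, with 0.397 ± 0.210 CPM in mutants and 0.217 ± 0.146 in the wild type. The genotype effect on hsp-16.41 was lower in old than in young animals (edgeR -1.43 ± 0.51, adjusted p = 0.0312), a call lost on leaving out any of 5 of the 20 libraries, among them replicate 5 of the young mutants (-1.12, adjusted p = 0.126), and with no filter on low values (edgeR adjusted p = 0.065).

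hsp-16.2 and hsp-16.41 are a divergent pair of neighbours on chromosome V, with 220 bases between the gene records in WBcel235. Per kilobase of exon their summed reads stood in a ratio of 0.971 to 1.12 (hsp-16.41 over hsp-16.2) in the 6 old groups. Over the 8 group means hsp-16.41 was also the closest gene to hsp-16.2 among 12751 compared (Pearson's r = 0.999), followed by sri-70 (0.995), pqn-29 (0.993), C08E8.4 (0.993) and F58G11.4 (0.992). All 5 were compared over means that include the gap between young and old animals. Within groups, the deviations of the 30 old libraries from their group means had r = 0.810 and Spearman's rho = 0.782 between the 2 genes, values that share each library's depth and scaling and are given as a description. Without the 2 libraries farthest from the median, r was 0.824.

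**Figure D2:**
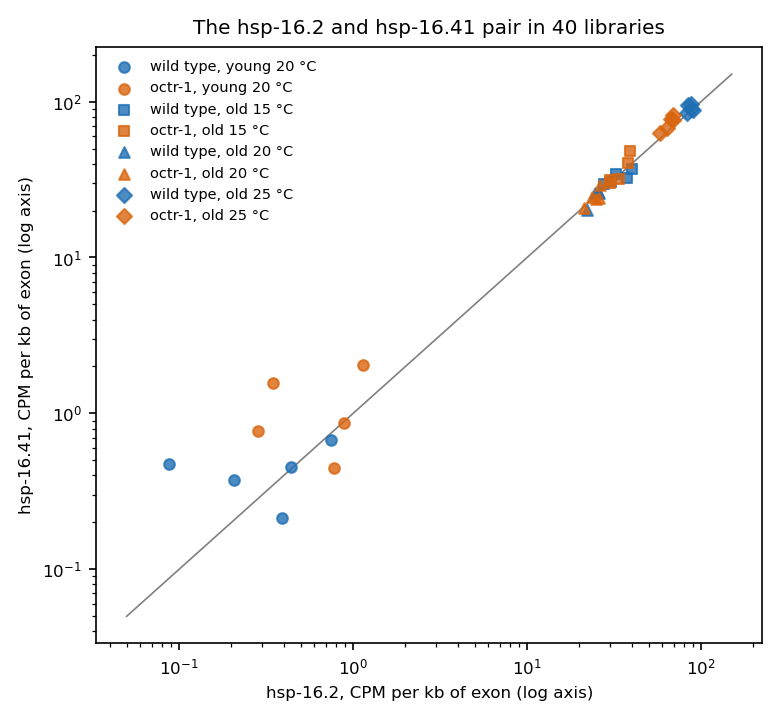
Each point is 1 of 40 libraries, with hsp-16.2 on the horizontal and hsp-16.41 on the vertical axis, both in TMM-scaled CPM per kilobase of exon on log axes; the grey line marks equality. Old libraries of either genotype follow the line, and young ones scatter around it, with as few as 1 read for hsp-16.2.

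The Hsp12 genes differed from the hsp-16 pair and from each other. hsp-12.3 and hsp-12.6 are adjacent genes on chromosome IV, and they moved in opposite directions with age. In the wild type at 20 °C hsp-12.6 rose 6.72-fold, from 0.929 ± 0.141 to 6.31 ± 0.879 CPM (edgeR log2 2.75 ± 0.14, adjusted p = 1.11e-23). hsp-12.3 fell 1.82-fold, from 3.76 ± 0.445 to 2.07 ± 0.361 CPM (-0.86 ± 0.12, adjusted p = 1.58e-08). The mutants showed both directions, at 4.11-fold and 2.04-fold, and the ratio of hsp-12.6 to hsp-12.3 reads per kilobase went from 0.214 in young to 2.63 in old wild-type animals.

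Of the 8 members, the Hsp12 pair had the largest rises from 20 to 15 °C in the wild type. Wild-type hsp-12.3 measured 8.0003, 6.86, 6.20, 5.61 and 5.91 CPM at 15 °C against 2.70, 1.93, 1.80, 1.92 and 1.99 at 20 °C. Every library at 15 °C was higher, by 3.12-fold in all (limma log2 1.64 ± 0.12, adjusted p = 6.46e-10). Wild-type hsp-12.6 measured 12.4, 13.9, 12.12, 13.9 and 12.57 CPM at 15 °C against 6.16, 7.83, 5.96, 5.56 and 6.03 at 20 °C, a 2.06-fold rise without overlap (1.04 ± 0.09, adjusted p = 4.21e-09). Both were also higher at 15 than at 25 °C in the wild type, by 2.24-fold and 1.71-fold.

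In mutants the rise at 15 °C was smaller for hsp-12.3 and was not found for hsp-12.6. Mutant hsp-12.6 measured 9.31, 7.33, 5.74, 6.53 and 5.82 CPM at 15 °C and 7.41, 7.14, 6.75, 6.82 and 8.02 at 20 °C. The groups overlapped, with a difference of -0.10 ± 0.11 (limma adjusted p = 0.418), which passed the test as a fall of 0.21 without replicate 1 of the mutants at 15 °C (adjusted p = 0.0318) and not without any other single library. At 15 °C the mutants were lower than the wild type, 1.91-fold for hsp-12.6 (-0.93 ± 0.11, adjusted p = 5.08e-06) and 1.49-fold for hsp-12.3 (-0.57 ± 0.11, adjusted p = 0.000298). The genotype effect at 15 °C differed from that at 20 °C for both (edgeR -1.09 ± 0.13, adjusted p = 2.22e-09, and -0.58 ± 0.16, adjusted p = 0.00587).

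The genotype difference of hsp-12.6 had the other sign elsewhere. In young mutants hsp-12.6 measured 1.80, 1.72, 1.40, 1.69 and 2.15 CPM, above all young wild-type libraries at 0.871, 1.06, 1.09, 0.760 and 0.863. It was 1.82-fold higher (limma 0.86 ± 0.17, adjusted p = 0.00063). At 25 °C mutants were 1.41-fold higher without overlap (0.49 ± 0.06, adjusted p = 1.15e-07), and at 20 °C in old animals 1.16-fold with overlap (0.22 ± 0.09, adjusted p = 0.0456), a call lost on leaving out any of 8 of the 10 libraries, with no filter (adjusted p = 0.0716) and with edgeR on all 40 libraries (0.0713). hsp-12.6 was thus lower in mutants at 1 of the 4 settings and higher at the other 3. At 25 against 20 °C hsp-12.6 was higher by 1.19-fold in the wild type and 1.47-fold in mutants and hsp-12.3 by 1.38-fold and 1.21-fold (edgeR adjusted p from 1.46e-07 to 0.0347). The wild-type call of hsp-12.6 was lost without replicate 4 at 20 °C (0.21, adjusted p = 0.0566), and the mutant call of hsp-12.3 on leaving out any of 4 libraries or with no filter (adjusted p = 0.0569). The genotype effect on hsp-12.6 was lower in old than in young animals (edgeR -0.71 ± 0.21, adjusted p = 0.00717). hsp-12.3 did not pass the test between genotypes in young animals (0.17 ± 0.12), at 20 °C (0.05 ± 0.12) or at 25 °C (-0.16 ± 0.09).

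**Figure D3:**
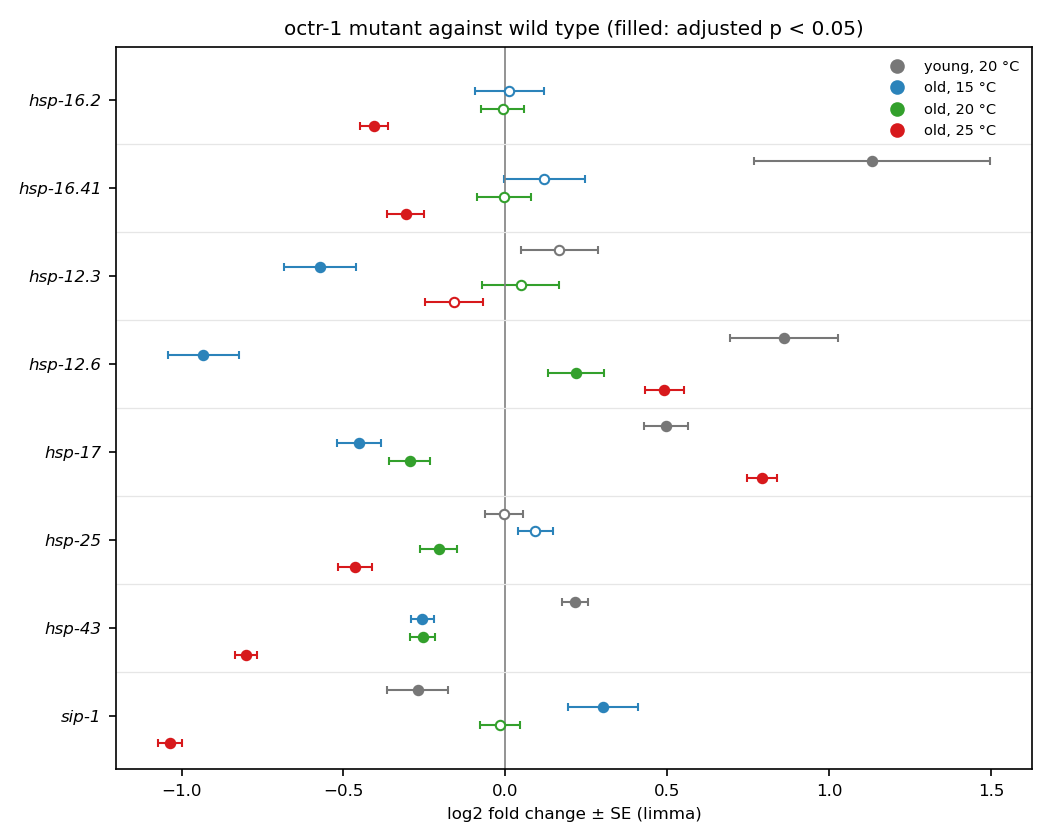
The horizontal axis is the limma log2 fold change ± SE of octr-1 mutants over wild type (5 against 5 libraries), with 1 colour per age and temperature; filled points passed an adjusted p of 0.05, and hsp-16.2 was not tested in young animals. hsp-12.6 and hsp-17 lie on both sides of 0, and sip-1 and hsp-43 are farthest to the left at 25 °C.

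hsp-17, a further alpha-crystallin family member, had the largest difference of the 8 members between old mutants at different temperatures. Mutant hsp-17 at 25 °C measured 34.1, 32.3, 33.7, 32.6 and 31.9 CPM, against 9.45, 8.91, 8.79, 8.20 and 8.98 at 20 °C and 7.19, 6.13, 6.48, 6.19 and 6.69 at 15 °C. The 3 groups did not overlap, and the rise from 20 to 25 °C was 3.71-fold (edgeR log2 1.89 ± 0.06, adjusted p = 2.9e-33). The wild type rose 1.73-fold (0.79 ± 0.06), from 11.005 ± 0.593 to 19.01 ± 1.42 CPM. At 15 °C both genotypes were below 20 °C, by 1.24-fold in the wild type and 1.38-fold in mutants (limma adjusted p = 0.000281 and 4.12e-06). With age hsp-17 was lower by 2.46-fold in mutants, from a mean of 21.8 to one of 8.87 CPM (edgeR -1.30 ± 0.06, adjusted p = 2.41e-26), and by 1.38-fold in the wild type, where the direction turned over (0.13, adjusted p = 0.0523) with library size as the only scaling. The genotype effect differed between 25 and 20 °C by 1.10 ± 0.08 (edgeR adjusted p = 1.83e-16), the largest of the 8 members in that test. Mutants were lower than the wild type by 1.23-fold at 20 °C and 1.37-fold at 15 °C but higher by 1.73-fold at 25 °C and by 1.41-fold in young animals, each without overlap (limma adjusted p from 2.13e-13 to 0.00078). Its genotype effect was thus also lower in old than in young animals at 20 °C (edgeR -0.83 ± 0.08, adjusted p = 4.22e-11).

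The 7 marker genes of the pharynx were higher in mutants than in the wild type at 25 °C in old animals, all 7 called (limma), with a median log2 fold change of 1.37. Their summed level was 125 to 139 CPM in old mutants at 25 °C and 51.9 to 60.5 in the wild type, with none of the 7 at 0 throughout either group. At 25 against 20 °C all 7 were higher in mutants and 1 of 7 in the wild type (edgeR). Of all genes, 76.5% were called between genotypes at 25 °C (36.8% higher). At 25 against 20 °C the share was 70.7% in mutants (36.1% higher) and 58.2% in the wild type (29.2% higher). At 15 against 20 °C, where hsp-17 was lower, 6 were lower in the wild type and 5 in mutants, none higher (limma). In young mutants, where hsp-17 was higher, 1 of 6 tested was higher and none lower. In old animals, where hsp-17 was lower in mutants, 1 was higher and 1 lower at 20 °C, and 1 and 3 at 15 °C. Of all genes, 63.9%, 66.5%, 43.6%, 47.5% and 51.1% were called in these comparisons, in that order. The part of these markers in the hsp-17 result was not tested.

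hsp-43, a long family member found in body wall muscle and reproductive structures, was highest in old wild-type animals at 25 °C. It measured 179, 185, 174, 169 and 178 CPM there and 80.8, 82.4, 84.3, 88.0 and 79.9 CPM at 20 °C, a 2.13-fold rise (edgeR log2 1.09 ± 0.04, adjusted p = 2.46e-30). In mutants it went from 70.9, 66.7, 68.6, 67.4 and 70.7 to 107, 101, 105, 96.4 and 99.8 CPM, a 1.48-fold rise (0.56 ± 0.04, adjusted p = 1.87e-19). No mutant library at 25 °C reached a wild-type one, a 1.74-fold difference (limma -0.80 ± 0.03, adjusted p = 3.26e-16), while at 20 and 15 °C mutants were lower by 1.19-fold in either case (-0.26 ± 0.04 each). Young mutants were higher by 1.16-fold (0.22 ± 0.04, adjusted p = 0.000435). At 15 °C hsp-43 was 1.32-fold above 20 °C in either genotype (limma adjusted p = 1.33e-07 and 1.34e-09). With age it was 1.72-fold lower in mutants (edgeR -0.78 ± 0.04, adjusted p = 1.41e-25) and 1.203-fold lower in the wild type, where the direction turned over (0.33) with library size as the only scaling. The genotype effect was lower in old than in young animals (edgeR -0.51 ± 0.05, adjusted p = 3.97e-11) and lower at 25 than at 20 °C (-0.53 ± 0.05, adjusted p = 1.94e-12). Of the 16 muscle markers, 15 were higher and 1 lower in the wild type at 25 than at 20 °C (edgeR), with summed levels of 1210 to 1298 and 934 to 1170 CPM, and 12 were lower and 4 higher in mutants than in the wild type at 25 °C (limma), where mutants stood at 902 to 1018 CPM. In the wild type at 15 against 25 °C, where hsp-43 was lower, 14 markers were lower and 2 higher (limma). Between old genotypes hsp-43 was lower in mutants at 20 and 15 °C. There 7 markers were lower and 2 higher at 20 °C, and 8 and 4 at 15 °C (limma). In some other comparisons the markers and hsp-43 parted. At 15 against 20 °C, where hsp-43 was higher, 2 markers were higher and 11 lower in the wild type and 4 and 12 in mutants (limma). At 25 against 20 °C in mutants 7 were higher and 6 lower (edgeR), with mean sums of 968 and 998 CPM. Of all genes, 58.2% were called at 25 against 20 °C in the wild type and 70.7% in mutants. At 15 against 20 °C the shares were 63.9% and 66.5%, and at 15 against 25 °C 79.0% in the wild type. Between old genotypes they were 76.5% at 25 °C, 47.5% at 20 °C and 51.1% at 15 °C.

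hsp-25, whose protein sits at the dense bodies of body wall muscle and in the pharynx, separated young from old animals more than it separated temperatures. It measured 56.3, 49.0, 44.9, 53.0 and 56.3 CPM in young wild-type animals and 24.5, 21.7, 26.4, 24.2 and 24.7 CPM in old ones at 20 °C. The fall was 2.14-fold in the wild type and 2.53-fold in mutants (edgeR log2 -1.09 ± 0.06 and -1.34 ± 0.06, adjusted p = 1.5e-23 and 2.61e-27). Old wild-type levels were 26.6 ± 1.92 CPM at 15 °C and 24.9 ± 1.04 at 25 °C, neither called by limma against the other, nor called against 20 °C. These missing calls depended on the test. The difference of 15 from 20 °C was called in 6 of 8 other settings, with edgeR (all 40 libraries, TMM, RLE or library size only), DESeq2 and a replicate block (log2 0.13 to 0.18, adjusted p from 0.012 to 0.0482), and without replicate 5 at 15 °C (limma 0.16, adjusted p = 0.0367) or replicate 3 at 20 °C. That of 15 from 25 °C was called with edgeR (TMM, RLE or library size only) and DESeq2 (adjusted p from 0.0191 to 0.0493), and without replicate 5 at 15 °C (limma 0.12, adjusted p = 0.0369). In mutants hsp-25 stood in a gradient of 28.6 ± 1.34 (15 °C), 20.8 ± 1.04 (20 °C) and 18.1 ± 1.49 CPM (25 °C), with all 3 differences called. The step from 20 to 25 °C was 0.00 on the log2 scale with library size as the only scaling.

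The mutants had less hsp-25 than the wild type at 25 °C, 1.38-fold without overlap (limma -0.46 ± 0.05, adjusted p = 2.37e-08), and at 20 °C, 1.15-fold with overlap (-0.21 ± 0.06, adjusted p = 0.00574). At 15 °C the difference was 0.09 ± 0.05 and in young animals -0.00 ± 0.06, neither called. The genotype effect was lower in old than in young animals (edgeR -0.25 ± 0.08, adjusted p = 0.0179), lower at 25 than at 20 °C (-0.24 ± 0.08, adjusted p = 0.0161) and higher at 15 than at 20 °C (0.33 ± 0.08, adjusted p = 0.00224). The first of these calls was lost with RLE (-0.18, adjusted p = 0.0906), with DESeq2 (adjusted p = 0.0893), with edgeR on the compared groups only (-0.21, adjusted p = 0.0532) and without replicate 3 of the young wild type (-0.20, adjusted p = 0.0553). The second was -0.06 and not called with library size as the only scaling (adjusted p = 0.498). Of the 16 muscle marker genes, 14 were lower in old than in young wild-type animals at 20 °C and 1 higher (edgeR), with a summed level of 934 to 1170 against 3361 to 4468 CPM. No muscle marker was at 0 throughout any group. In mutants 14 were lower and 2 higher. Of all genes, 84.4% were called for age in the wild type (48.6% higher, 35.8% lower) and 84.5% in mutants. Where hsp-25 was lower in old mutants than in the wild type, 12 markers were lower and 4 higher at 25 °C (limma). At 20 °C 7 were lower and 2 higher. In mutants the markers and hsp-25 parted at 15 °C, where hsp-25 was higher. There 4 were higher and 12 lower against 20 °C, and 2 and 13 against 25 °C (limma). Beside these, 66.5% and 78.9% of all genes were called. The part of the muscle markers in the differences of hsp-25 and hsp-43 was not tested.

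sip-1, the oocyte and embryo member, stood at 1326 ± 131 CPM in old wild-type animals at 20 °C, 1264 ± 171 in young ones and 1310.5 ± 92.5 at 25 °C, without a called difference among these in the TMM-scaled fits. At 15 °C the wild type was lower, at 927 ± 118 CPM, by 1.44-fold against 20 °C (limma -0.52 ± 0.08, adjusted p = 8.58e-05). Mutants at 25 °C measured 637, 647, 611, 653 and 646 CPM against 1296, 1425, 1376, 1189.8 and 1266 in the wild type. The 2 groups were far apart, a 2.05-fold difference (limma -1.04 ± 0.04, adjusted p = 3.78e-17), which was the largest genotype difference of any member in old animals. It fell 2.03-fold between 20 and 25 °C in mutants (edgeR -1.02 ± 0.09, adjusted p = 4.36e-12), and the genotype effect differed between those temperatures (-1.001 ± 0.13, adjusted p = 4.74e-08). Old mutants at 15 °C were 1.76-fold above those at 25 °C (limma 0.82 ± 0.07, adjusted p = 3.44e-08), whereas the wild type was 1.43-fold lower at 15 °C. With age sip-1 was 1.22-fold higher in mutants at 20 °C (edgeR 0.28 ± 0.09, adjusted p = 0.00466).

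The remaining genotype differences of sip-1 were small and overlapped. Mutants were 1.23-fold higher at 15 °C (limma 0.30 ± 0.11, adjusted p = 0.0409) and 1.21-fold lower when young (-0.27 ± 0.09, adjusted p = 0.0374), calls lost on leaving out any of 7 and any of 5 of the 10 libraries, and both lost with no filter (limma adjusted p = 0.089 and 0.0761). The second was also lost with library size as the only scaling (edgeR adjusted p = 0.121). In old animals at 20 °C the difference was -0.02 ± 0.06. Of the 19 oocyte marker genes, all 19 were lower in mutants than in the wild type at 25 °C (limma), with a summed level of 8431 to 9184 against 12006 to 12808 CPM. All 19 were also lower in the wild type at 15 than at 20 °C, at 7688 to 8955 against 12031 to 13292 CPM. In the wild type at 15 against 25 °C, where sip-1 was lower, 18 markers were lower and 0 higher (limma). In young mutants against the young wild type, where sip-1 was lower, 16 were lower and 0 higher (limma). In old mutants against the wild type at 15 °C, where sip-1 was higher, 9 were higher and 1 lower (limma). Mutants at 25 °C, where sip-1 was below its level at 20 °C, had a mean sum of 8894 CPM against 12811 at 20 °C. In some other comparisons the markers and sip-1 parted. In mutants at 15 against 25 °C, where sip-1 was higher, 7 markers were higher and 8 lower (limma), with mean sums of 9056 and 8894 CPM. At 15 against 20 °C in mutants, where sip-1 was not called, 17 were lower and 1 higher, with mean sums of 9056 and 12811 CPM. Between old genotypes at 20 °C, where sip-1 was not called, 9 were lower and 2 higher in mutants (limma). Young wild-type animals had 18143 to 21281 CPM of these markers and no called difference in sip-1 from old ones. Of all genes, 76.5% were called between old genotypes at 25 °C (39.7% lower), 47.5% at 20 °C and 51.1% at 15 °C. Between young genotypes 43.6% were called (24.0% lower). At 15 against 25 °C the share was 79.0% in the wild type (40.8% lower) and 78.9% in mutants. At 15 against 20 °C it was 63.9% (33.4% lower) and 66.5%. No oocyte marker was at 0 throughout any group, and the part of these markers in the sip-1 differences was not tested.

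**Figure D4:**
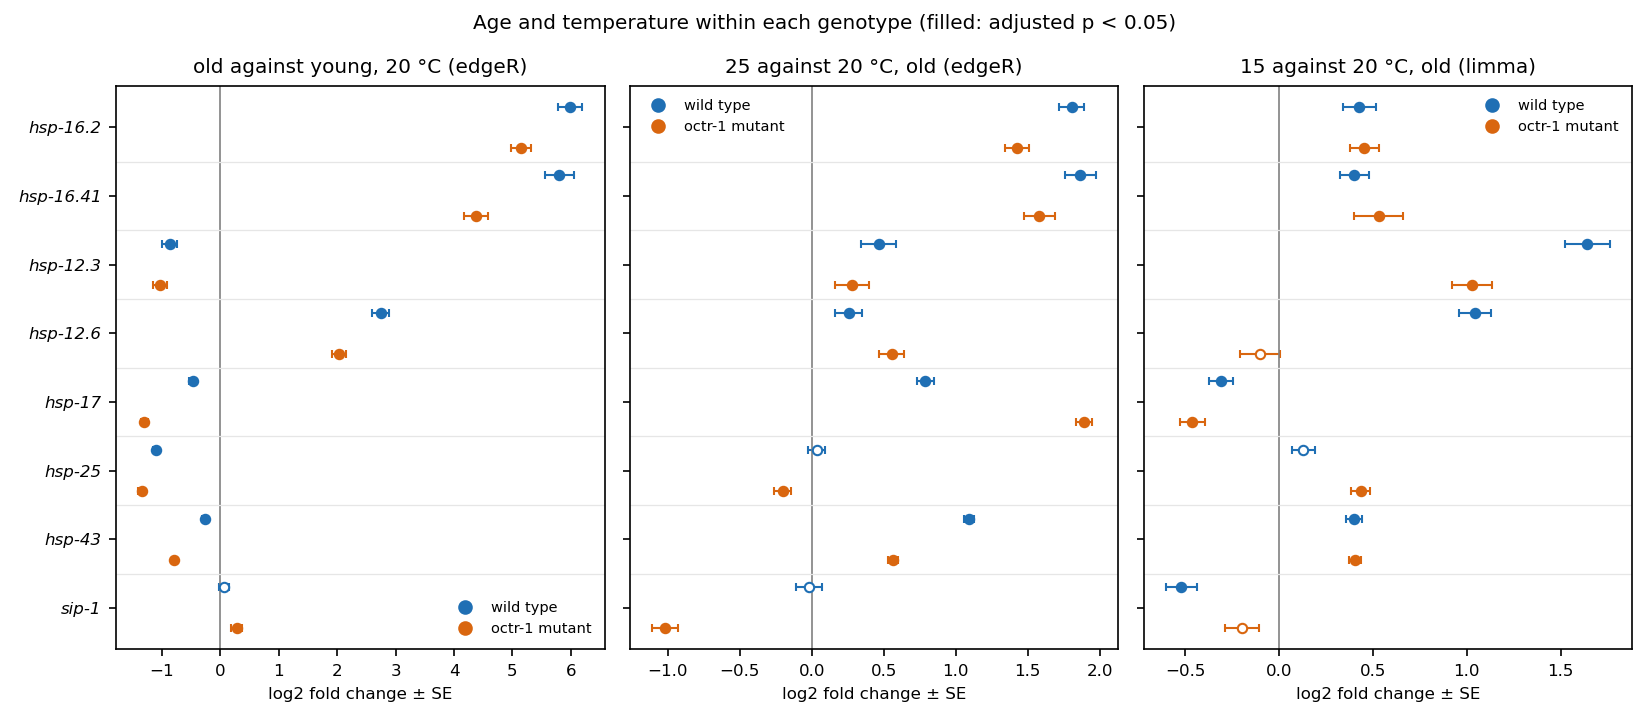
Horizontal axes give the log2 fold change ± SE within each genotype (5 against 5 libraries): old over young at 20 °C, 25 over 20 °C in old animals and 15 over 20 °C in old animals; filled points passed an adjusted p of 0.05. hsp-16.2, hsp-16.41 and hsp-12.6 lie to the right with age, where the wild-type points of hsp-17 and hsp-43, left of 0 here, move right of 0 with library size as the only scaling.

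Counted over the family, the members' counts stand beside large shares of all genes called. With age, 3 of 8 members were higher and 4 lower in the wild type, where 84.4% of all genes were called, 48.6% higher and 35.8% lower. In mutants all 8 were called, 4 in each direction, where 84.5% of all genes were. The TMM factors were 0.675 to 0.749 in young and 1.05 to 1.27 in old libraries. With library size as the only scaling, the median over all genes moved from 0.23 to 0.82 in the wild type and from 0.14 to 0.70 in mutants. In the wild type hsp-17 then went from -0.47 to 0.13 and hsp-43 from -0.27 to 0.33, and sip-1 from 0.07 to a called 0.67. A change of scaling shifts all genes of a library alike, so the distance from the median gene was bound to stay. It was -0.70 and -0.69 for hsp-17 and -0.49 under either scaling for hsp-43, and cannot decide the direction of either gene. Of the genes called for age, 57.6% were higher with TMM and 83.5% under library size alone in the wild type, and 55.2% and 80.0% in mutants.

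At 25 against 20 °C, 6 of 8 members were higher and none lower in the wild type (edgeR), where 58.2% of all genes were called, 29.2% higher and 29.1% lower. hsp-25 and sip-1 were not called there, also at an unadjusted p under 0.05. In mutants 6 were higher and 2 lower, beside 70.7% of all genes called, 36.1% higher and 34.6% lower. The higher share of those called was 51.1% with TMM and 67.1% when scaled by library size alone. The median log2 fold change of the 8 members was 0.63 in the wild type and 0.56 in mutants, against -0.01 and 0.03 over all genes. At 15 against 20 °C, 5 were higher and 2 lower in the wild type, beside 63.9% of all genes (30.5% higher, 33.4% lower). In mutants 5 were higher and 1 lower, beside 66.5% (31.7% and 34.8%). At 15 against 25 °C, 2 were higher and 5 lower in the wild type, beside 79.0% of all genes (38.2% and 40.8%), and 3 and 5 in mutants, beside 78.9% (38.6% and 40.4%). In the mutant comparison 48.9% of called genes were higher, against 38.5% when scaled by library size alone.

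Between genotypes, 4 of 7 tested members were higher and 1 lower in young mutants, beside 43.6% of all genes called, 19.6% higher and 24.0% lower. The 4 include hsp-16.41, which passed the filter on low values mainly through the mutants, where it was high. With edgeR on these groups only (TMM or RLE) and with DESeq2, 3 members were higher and 1 lower. In old animals 1 was higher and 3 lower at 20 °C, beside 47.5% of all genes (22.8% higher, 24.7% lower). The counts were 1 and 4 at 15 °C, beside 51.1% (24.1% and 27%), and 2 and 5 at 25 °C, beside 76.5% (36.8% and 39.7%). The share of called genes that were higher was 44.9% in young animals and 48.1% at 25 °C, against 78.4% and 69.7% when scaled by library size alone. The median over all genes then moved from -0.01 to 0.20 at 25 °C. The young count rested on few libraries, with 3 members called without wild-type replicate 5, without mutant replicate 1 or without mutant replicate 5.

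In the tests of a difference between genotype effects, 5 of 8 members were lower and none higher for old against young animals, beside 28.4% of all genes called, 9.03% higher and 19.4% lower. At an unadjusted p under 0.05 the count was also 0 higher. Without replicate 3 of the young wild type, 3 were called, and the call of hsp-25 was lost in 3 other settings. For 25 against 20 °C, 2 were higher and 4 lower, beside 50.6% of all genes (24.3% and 26.3%). For 15 against 20 °C, 4 of 8 were called, 2 in each direction, beside 22.4%. The share of called genes that were higher went from 31.8% to 24.9% for age, from 48.0% to 69.2% for 25 °C and from 53.8% to 37.9% for 15 °C with library size as the only scaling. With RLE scaling the first of these was 49.9%.

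The 8 other small heat shock genes listed in the tables included hsp-16.11 and hsp-16.49, at 0, and 6 with reads. hsp-12.2, a further Hsp12 gene, behaved like hsp-17 at 25 °C. It rose 3.39-fold from 20 to 25 °C in mutants and 1.35-fold in the wild type (edgeR log2 1.76 ± 0.09 and 0.43 ± 0.10), and the 2 effects differed by 1.33 ± 0.13 (adjusted p = 6.09e-12). hsp-12.1 rose 3.33-fold and 3.003-fold in the wild type and in mutants, reaching no more than 1.33 CPM. At 25 °C F08H9.3, F08H9.4 and ZK1128.7 were higher in mutants by 2.38-fold, 1.95-fold and 1.34-fold and Y55F3BR.6 was 1.63-fold lower (limma adjusted p from 4.91e-10 to 0.000105). Unlike the Hsp12 genes of chromosome IV, hsp-12.2 was lower at 15 than at 20 °C in the wild type, by 1.52-fold (limma -0.60 ± 0.09, adjusted p = 1.07e-05).

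ATP-driven chaperones and co-chaperones tied to HSF-1 were counted as a list. The list, called HSF-1 chaperones below, also holds hsf-1 itself, hsb-1, ddl-1 and ddl-2. Most of its genes did not share the direction of the hsp-16 pair with age. Of 18 measured, 15 were lower and 2 higher in old than in young wild-type animals, and 14 and 2 in mutants (edgeR), with medians of -0.66 in both genotypes. Of all genes, 84.4% were called for age in the wild type (48.6% higher, 35.8% lower) and 84.5% in mutants. The median over all genes was 0.23 in the wild type and 0.14 in mutants. With library size as the only scaling it was 0.82 and 0.70, and the directions of the listed genes under that scaling are not given here. hsp-110, an Hsp70-family nucleotide exchange factor, was 2.60-fold lower and the J-domain gene dnj-13 2.31-fold lower in the wild type. At 25 against 20 °C, 7 were higher and 4 lower in the wild type, led by hsp-70, a heat-inducible Hsp70, at 2.30-fold higher, and 5 and 9 in mutants, where hsp-1, the constitutive Hsp70, was 2.01-fold lower. These stand beside 58.2% of all genes called in the wild type (29.2% higher, 29.1% lower) and 70.7% in mutants (36.1% and 34.6%). Between genotypes at 25 °C, 12 were lower, hsp-110 by 1.69-fold, and 3 higher in mutants (limma), beside 76.5% of all genes (36.8% higher, 39.7% lower). In young mutants 14 were lower and 1 higher, by small amounts such as 1.15-fold for the Hsp90 gene daf-21, a count that was 5 in all with library size as the only scaling. Of all genes, 43.6% were called there, 19.6% higher and 24.0% lower.

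Genes of the endoplasmic reticulum response counted 5 higher and 8 lower of 13 with age in the wild type and 2 and 8 between genotypes at 25 °C, where hsp-3, a BiP, was 1.504-fold lower in mutants. Of 10 mitochondrial response genes, none was higher and 9 were lower with age in the wild type (edgeR), the chaperonin gene hsp-60 by 4.52-fold, and 4 were higher and 4 lower between genotypes at 25 °C, hsp-60 by 2.68-fold lower. Of 16 measured genes tied to DAF-16, 9 were higher and 5 lower with age in the wild type, and 3 and 12 at 15 against 20 °C (limma). That list also holds daf-16 itself, daf-2 and ins-7, and its counts are not a measure of DAF-16 output. dod-3 was 15.6-fold higher with age and 4.36-fold lower at 15 °C, where hsp-12.6 was higher. Between genotypes at 25 °C, 3 were higher and 13 lower, dod-3 by 11.6-fold lower, where hsp-12.6 was higher in mutants. These counts stand beside 84.4% of all genes called with age in the wild type (48.6% higher, 35.8% lower). The share was 76.5% between genotypes at 25 °C (36.8% and 39.7%) and 63.9% at 15 against 20 °C in the wild type (30.5% and 33.4%).

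Other markers varied with the groups as well. Summed over their lists, intestine markers stood at 4346 to 5259 CPM in young and 355 to 1572 in old animals, and germline markers at 8142 to 9712 and 4024 to 5385. Neuron markers ran the other way, at 214 to 258 CPM in young and 309 to 545 in old animals. Sperm markers were higher in mutants at each setting, with 31.7 to 57.5 CPM in the young wild type and 63.3 to 134.7 in young mutants. Early embryo markers stood at 13.8 to 30.97 CPM throughout. Their part in the results above was not tested.

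Besides hsp-16.2, a few genes had patterns over the 8 group means close to those of single members, given by Pearson's r among 12751 genes as a description. hsp-12.6 was most like B0563.5 (0.988), F53A9.7 (0.987), F10D7.3 (0.984), W02D9.6 (0.983) and nhr-232 (0.982). hsp-25 was most like pat-12 (0.987), the collagen gene col-96 (0.986), tin-9.2 (0.985), eat-3 (0.981) and vha-16 (0.981). sip-1 was most like inft-2 (0.978), sur-2 (0.961), F11E6.7 (0.950), swsn-7 (0.948) and the cyclin B gene cyb-1 (0.935).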

How the data were processed

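Polyadenylated RNA of whole animals was sequenced from stranded libraries. Per the submitters' processing notes, bcl2fastq, HISAT2 2.2.1, featureCounts and DESeq2 1.31.16 were used with the ce10 build; how multi-mapped reads were counted is not given in the sources used here. The authors deposited 9 comparison tables with 90 sample columns, and their values are a signal, read counts divided by a size factor (0.794 to 1.253). Whole reads were recovered from these values, with 100% of values within 0.001 reads of a whole number, and gave 1 count table of 40 libraries. The p-values and log2 fold changes printed were computed here and are not those the authors deposited.

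Genotype comparisons and those of 15 °C with another temperature were made within their table with limma 3.58.1 (trend, robust) on log2(value + 1), keeping genes whose value reached 10 in 5 or more libraries. The other comparisons used edgeR 4.0.16 quasi-likelihood tests with TMM on the recovered reads of all 8 groups, because no usable table holds them under correct names or the contrast spans tables. Both ran in R 4.3.3, with p-values adjusted by Benjamini and Hochberg over all genes, and figures in Python 3.11.15. SEs of edgeR were taken from the fold change and its F statistic. Depth was 27.9 to 40.998 M reads.

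The alternatives were pseudocount 0.1, no filter, RLE, library size only, DESeq2 1.42.0, other groups in the fit, a replicate block and leaving out each library. The members and lists were chosen with earlier results of these data known. Named were all members, 8 further family genes, octr-1, up to 3 genes of smallest p per pathway list and comparison, and the 5 genes most like each of 4 members over the group means of log2(CPM + 1), among genes of at least 1 CPM. The limma and edgeR fits were tested on simulated data. Exon lengths, chromosomes and neighbours came from WBcel235, so no coordinates are printed.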

Additional observations from a re-analysis of the deposited data

Results flagged for a closer look

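Among 64 groups of 5 libraries (8 members in 8 groups), 4 held a library that stood far from the other 4, where chance gives about 1 in 20 groups. All 4 were in old wild-type animals at 20 °C. In replicate 3 hsp-16.41 stood at 12.9 CPM against 16.503 to 16.8 in the others. In replicate 1 hsp-12.3 stood at 2.70 CPM against 1.80 to 1.99. Replicate 2 was high for hsp-12.6, at 7.83 CPM against 5.56 to 6.16, and for hsp-17, at 12.06 CPM against 10.7 to 10.8.

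In edgeR's tests of a difference between genotype effects (log2 scale, 5 libraries per group), 15 member results passed an adjusted p of 0.05. For old against young animals these were hsp-16.41 (-1.43), hsp-12.6 (-0.71), hsp-17 (-0.83), hsp-25 (-0.25) and hsp-43 (-0.51). For 25 against 20 °C in old animals they were hsp-16.2 (-0.38), hsp-12.6 (0.30), hsp-17 (1.10), hsp-25 (-0.24), hsp-43 (-0.53) and sip-1 (-1.001). For 15 against 20 °C they were hsp-12.3 (-0.58), hsp-12.6 (-1.09), hsp-25 (0.33) and sip-1 (0.35).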

How the results depend on the processing

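Direction was compared only where a value was called in at least 1 of the 2 settings. Under settings other than leaving out a library, 810 of the members' values stayed on their side of the threshold, with called ones keeping direction. Of the others, 20 lost a call, 12 gained one and 10 turned over. On leaving out a library 1365 stayed in that sense, 55 lost a call and 5 gained one. With the names of the mutant table of 25 against 20 °C taken as given, the log2 fold changes were -1.41 for hsp-16.2, -1.56 for hsp-16.41, -0.26 for hsp-12.3, -0.53 for hsp-12.6, -1.87 for hsp-17, 0.22 for hsp-25, -0.54 for hsp-43 and 1.03 for sip-1. They were -1.50 for hsp-12.1, -1.73 for hsp-12.2, -0.76 for F08H9.3, -0.78 for F08H9.4, -0.44 for ZK1128.7 and 0.39 for Y55F3BR.6. All 10 columns of that table hold the reads that the other tables give to the same replicate number of the other group. Exchanging the names back, a setting chosen after seeing the data, flips every sign of that fit by construction and is no separate test. With library size as the only scaling, the age values of hsp-17 (0.13) and hsp-43 (0.33) in the wild type and of ZK1128.7 (0.44) and Y55F3BR.6 (0.18) in mutants turned over. The median over all genes moved from 0.23 to 0.82 in the wild type and from 0.14 to 0.70 in mutants. The 5 members called between genotypes in young animals were 3 with library size as the only scaling and 3 to 5 without 1 library; the 5 called for the genotype effect of old against young animals were 3 to 5 without 1 library. The cause was not tested.

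The calls of hsp-12.6 for the genotype effect at 25 against 20 °C (adjusted p = 0.0451) and of sip-1 at 15 against 20 °C (0.0456) in edgeR were lost without any of 11 and any of 13 of the 20 libraries, with adjusted p of 0.0553 to 0.163 and 0.054 to 0.110. The first was also lost with no filter and DESeq2 (0.069 and 0.0537), and the second with RLE, library size only, no filter and the compared groups only (0.057 to 0.115). That of hsp-25 for old against young animals was lost with RLE, DESeq2 and the compared groups only (0.0532 to 0.0906). Mutant sip-1 at 15 against 20 °C gained a call without replicate 5 at 15 °C (limma -0.26, adjusted p = 0.00802). Counts of calls in these lists moved by over 1.5 times as follows. With library size only, HSF-1 chaperones between genotypes in young animals went from 15 to 5, and mitochondrial genes from 3 to 7 at 15 against 20 °C in the wild type and from 5 to 3 in mutants, also 3 with no filter or with all 40 libraries in edgeR. Mitochondrial genes between genotypes at 25 °C went from 8 to 5 without wild-type replicate 3. For the genotype effect of old against young animals, HSF-1 chaperones went from 8 to 5 with no filter, and endoplasmic reticulum genes from 5 to 2 with RLE and 3 with DESeq2. For that at 15 against 20 °C, HSF-1 chaperones went from 5 to 3 with DESeq2, endoplasmic reticulum genes from 2 to 1 with no filter and to 0 with library size only or the compared groups only, and mitochondrial genes from 2 to 5 and 4 under those. The further family genes, with 0 or 1 call in 4 comparisons, moved to between 0 and 3. The replicate numbers were not used as pairs, because no label says that they mark a shared culture or day. Of 60 pairs of the same number, 8 correlated above 0.1, in a range from -0.187 to 0.232. Of the 60, 17 correlated best with their own number. These values cannot decide whether a culture or day was shared. With a replicate block hsp-25 was called at 15 against 20 °C in the wild type (limma adjusted p = 0.0453), as it was with every edgeR setting tried there and DESeq2 (0.012 to 0.0482). Depth limits the hsp-16 pair in young animals, at 1 to 36 reads per library.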
